A study of Homo sapiens with 12 samples.

Results

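The response of the SKOV3 line and its taxane-resistant derivative SKOV3-TR (labelled SKOV3_TR) to the drug quinacrine (QC) was measured by RNA-seq in 4 of the 12 libraries of the series. These are all libraries labelled with these line names, 1 per line and treatment. SKOV3 is an established human ovarian cancer cell line labelled sensitive to chemotherapy, and SKOV3-TR is the matching line labelled resistant. Each line received 8 µM QC or buffer alone (vehicle) for 6 h. The other 8 libraries hold the same treatments in HeyA8 (labelled sensitive) and HeyA8_MDR (labelled resistant) and in OV2008 (labelled sensitive) and its cisplatin-resistant counterpart OV2008_C13. With 1 library per line and treatment, the question was which genes moved alike in both isogenic lines and which moved in SKOV3 or SKOV3-TR alone.

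QC is an acridine derivative long used against malaria that binds nucleic acids and, as a weak base, collects in acidic lysosomes. Cells passing from G2 into mitosis switch on a set of cyclins, kinases and motor proteins largely through the MuvB, B-MYB and FOXM1 factors acting at cell cycle homology regions and CCAAT boxes of their promoters. Heat shock factor 1 drives chaperone genes when unfolded protein accumulates in the cytosol, while ATF4 drives genes of amino acid synthesis, transport and tRNA charging when amino acids run short or the endoplasmic reticulum is stressed.

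In ERBB2 and ABCB1 the libraries carried the features of their labels. ERBB2, the receptor gene amplified in SKOV3, had 203950 and 157083 counts in SKOV3 without and with QC and 136319 and 66468 in SKOV3-TR. ABCB1, the efflux pump that expels taxanes, had 4 and 10 counts in SKOV3 and 11298 and 2768 in SKOV3-TR, which is 330.2 and 145.5 CPM (counts relative to the library total, scaled by the trimmed mean of M-values) in the resistant line. Among 123 genes at least 8-fold higher in the SKOV3 than in the SKOV3-TR vehicle library, SKOV3-TR with QC lay a median of -0.0413% of the way towards SKOV3. The epithelial markers summed to between 21494 and 36566 counts per library, the 5 blood cell markers to between 4 and 12, the 5 fibroblast markers to between 226 and 1372 and the 2 endothelial markers to between 0 and 187, the last of these in SKOV3-TR with vehicle. Within the epithelial sum, EPCAM had 1253 and 1163 counts in SKOV3 without and with QC and 104 and 77 in SKOV3-TR. CDH1 had 1002 and 1121 against 361 and 69, while KRT7 had 6191 and 7207 against 21173 and 12728. Of the ovarian markers, MUC16 (260 and 193 against 8 and 2) and MSLN (312 and 167 against 20 and 24) were lower in SKOV3-TR. PAX8 (8097 and 5156 against 16239 and 8099) and WT1 (30 and 22 against 123 and 43) were higher. Total counts were 21604010 and 19659854 in SKOV3 and 29397993 and 17782556 in SKOV3-TR without and with QC. One library outside the pair stood apart: among 16 genes at least 8-fold higher in HeyA8_MDR than in HeyA8 vehicle, HeyA8 with QC lay 46.2% of the way towards HeyA8_MDR. Because the spread between the responses of paired lines enters every test, results without HeyA8 are given beside those they touch.

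Fewer genes reached a 2-fold difference with QC in SKOV3 and SKOV3-TR than in the other lines, and the lists of both lines overlapped little. Of 20403 genes tested, 969 (4.75%) were at least 2-fold higher with QC in SKOV3 and 952 (4.67%) at least 2-fold lower. In SKOV3-TR the counts were 832 (4.08%) and 1285 (6.3%). The other 4 lines had between 2510 and 3911 genes at least 2-fold changed, against 1921 and 2117 here. Only 114 genes (0.559%) were at least 2-fold higher in both lines, which is 11.8% of the SKOV3 list and 13.7% of the SKOV3-TR list, and 144 (0.706%) were at least 2-fold lower in both, 15.1% and 11.2% of those lists. A gene was counted for a single line where that line changed at least 2-fold and the other by less than 0.5 on the log2 scale. By that rule 457 genes (2.24%) were higher and 459 (2.25%) lower in SKOV3 alone, and 427 (2.09%) were higher and 698 (3.42%) lower in SKOV3-TR alone. A further 102 (0.5%) were higher in SKOV3 and lower in SKOV3-TR, and 72 (0.353%) the reverse.

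Few of these genes were abundant. The largest of the 4 counts had a median of 14.5 for the genes higher in both lines and 26 for those lower in both, against 478 for the genes in no class. Requiring 10 counts in every library of the series left 9 and 6 of them. Over all tested genes the log2 changes of both lines correlated at r = 0.064 (Spearman's rho 0.073), and over the 8637 genes with at least 200 counts in all 4 libraries at r = 0.144. Those values are across genes within single libraries, and genes are not independent replicates. The same r was 0.218 in the HeyA8 pair and 0.415 in the OV2008 pair.

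**Figure D1:**
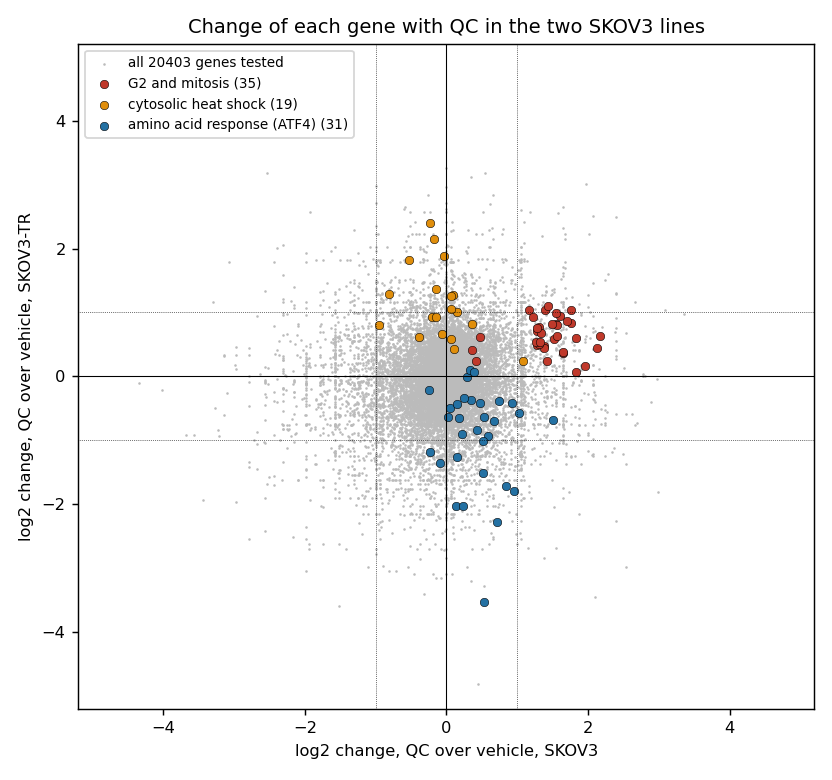
Log2 change with QC over vehicle in SKOV3 (x axis) and in SKOV3-TR (y axis), 1 grey point for each of 20403 genes, with dotted lines at a 2-fold change. The 35 G2 and mitosis genes lie above 0 in both lines, the 19 heat shock genes lie above 0 in SKOV3-TR, and most of the 31 amino acid response genes lie to the right of 0 in SKOV3 and below 0 in SKOV3-TR.

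A test over both lines used edgeR's quasi-likelihood fit of all 12 libraries with a term for each line. Replicates here are different lines and not repeat cultures of 1 line. Each p-value thus sets the mean QC response of the SKOV3 pair against the spread between the responses of paired lines, taken over all pairs. With either HeyA8 line left out, that spread comes from the SKOV3 and OV2008 pairs. No gene (0%) passed an adjusted p of 0.05 in edgeR, and the smallest adjusted p was 0.338, while DESeq2 called 16. At an unadjusted p under 0.05, the threshold used below for "rose" and "fell" over both lines, 509 genes (2.49%) rose and 389 (1.91%) fell. The value tested is the mean of both lines, so a single line can carry a gene past the threshold. Of the genes that passed, 52 were at least 2-fold higher in both lines, 50 in SKOV3 alone and 59 in SKOV3-TR alone. For genes at least 2-fold lower these numbers were 60, 28 and 40. With HeyA8 left out, 63 genes passed the adjusted threshold, 56 higher and 7 lower, and with HeyA8_MDR left out 86 did.

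Genes of G2 and mitosis rose together over both lines. Of 35 tested, 30 rose and 0 fell over both lines, and all 35 lay above 0 in each line. The median log2 change was 1.43 in SKOV3 and 0.63 in SKOV3-TR, against 0.00 over all genes in either line, and 32 genes in SKOV3 but 4 in SKOV3-TR were at least 2-fold higher. With HeyA8 left out, 21 of the 35 passed the adjusted threshold in edgeR's test. With SKOV3 left out, so that SKOV3-TR stood alone, 7 of 35 had an unadjusted p under 0.05, and without SKOV3-TR 31 did.

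PTTG1, the securin that blocks the separation of sister chromatids until anaphase, measured 23.98 and 53.9 CPM in SKOV3 without and with QC, and 95.28 and 195 CPM in SKOV3-TR. It was higher with QC in both lines by close to the same amount, 2.24-fold and 2.05-fold, with a log2 change over both of 1.10 ± 0.17 (SE; edgeR adjusted p = 0.338), and it had the smallest p of all genes. CCNB1, the cyclin that activates the mitotic kinase, went from 48.38 to 142.2 CPM in SKOV3 and from 147.2 to 258.7 CPM in SKOV3-TR, a log2 change over both lines of 1.18 ± 0.24. CDK1, that kinase itself, went from 20.38 to 68.99 CPM and from 124.3 to 221 CPM, a change of 3.38-fold and 1.78-fold. TOP2A, the topoisomerase that untangles replicated DNA, went from 158.9 to 518.2 CPM and from 714.1 to 1296 CPM. In all 4 genes the SKOV3-TR vehicle library already lay above the SKOV3 library with QC. In bulk libraries, more cells in G2 and mitosis and more of these mRNAs per cell cannot be told apart. BUB3, a spindle checkpoint protein, showed 1.29-fold and 1.33-fold and did not pass.

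The rise was smaller in SKOV3-TR for most of these genes, but few passed a test of the difference. Only 2 of the 35 had a higher log2 change in SKOV3-TR than in SKOV3. In the test of the difference between the lines, 4 of the 35 had a smaller response in SKOV3-TR at an unadjusted p under 0.05. Of all genes 272 (1.33%) did. UBE2C, the ubiquitin-conjugating enzyme of the anaphase-promoting complex, went from 14.77 to 64.85 CPM in SKOV3 and from 93.5 to 126.6 CPM in SKOV3-TR. Its log2 response in SKOV3-TR minus SKOV3 was -1.70 ± 0.39 (SE; edgeR adjusted p = 0.856). AURKB, the kinase of the chromosomal passenger complex, went from 4.94 to 17.86 CPM in SKOV3 and from 43.23 to 45.51 CPM in SKOV3-TR, a difference of -1.78 ± 0.55. PLK1, a kinase of mitotic entry, had a difference of -1.27 ± 0.56. For PTTG1 and CCNB1 the differences were -0.14 ± 0.34 and -0.74 ± 0.42, which did not pass.

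Promoter windows from RefSeq (GRCh38.p14, 250 bases before to 50 after the start, gene strand, 5′ to 3′) were available for 29 of the 35 genes. The cell cycle homology core TTTGAA, read on both strands, lay in 18 of the 29 (62.1%) against 15.4% of all 27305 windows, and CCAAT lay in 23 (79.3%) against 35.7%. Both were present in 16 (55.2%) against 6.08%. A match is a description of letters and not a measured binding site. The windows of 3 of the genes above are shown because their mRNA moved together, with TTTGAA and CCAAT matches on either strand in capitals for CDK1 and TOP2A. PTTG1 holds no TTTGAA in this window, and its capitals mark CCAAT. The positions are chr5:160421605-160421904 for PTTG1, chr10:60778081-60778380 for CDK1 and, on the minus strand, chr17:40417847-40418146 for TOP2A.
PTTG1: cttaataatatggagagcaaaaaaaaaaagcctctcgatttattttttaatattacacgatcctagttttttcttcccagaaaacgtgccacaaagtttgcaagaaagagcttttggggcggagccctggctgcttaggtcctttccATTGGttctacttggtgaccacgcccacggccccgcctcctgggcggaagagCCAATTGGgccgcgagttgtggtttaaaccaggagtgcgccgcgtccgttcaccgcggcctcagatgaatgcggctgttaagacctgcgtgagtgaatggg
CDK1: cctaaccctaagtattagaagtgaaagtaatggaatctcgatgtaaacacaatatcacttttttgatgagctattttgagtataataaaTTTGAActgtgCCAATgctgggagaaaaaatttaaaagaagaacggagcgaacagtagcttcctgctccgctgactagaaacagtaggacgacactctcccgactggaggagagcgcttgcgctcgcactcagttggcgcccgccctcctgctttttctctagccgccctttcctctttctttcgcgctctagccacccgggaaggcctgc
TOP2A: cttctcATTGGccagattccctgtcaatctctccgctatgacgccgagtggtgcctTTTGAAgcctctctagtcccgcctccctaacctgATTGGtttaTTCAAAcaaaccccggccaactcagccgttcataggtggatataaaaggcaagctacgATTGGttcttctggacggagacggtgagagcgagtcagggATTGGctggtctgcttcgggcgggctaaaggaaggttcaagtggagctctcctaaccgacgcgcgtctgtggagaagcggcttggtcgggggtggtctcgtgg

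**Figure D2:**
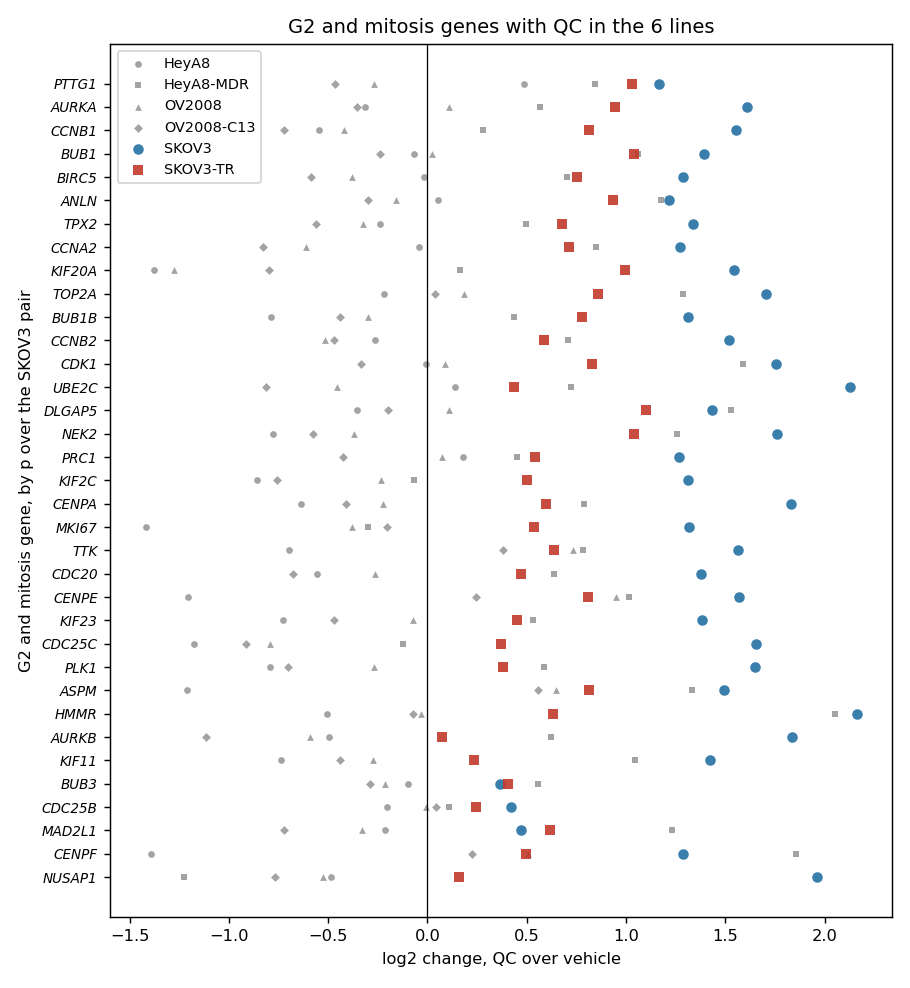
Log2 change with QC over vehicle (x axis) of the 35 G2 and mitosis genes (y axis) in the 6 lines, 1 point per line, with SKOV3 in blue, SKOV3-TR in red and the other lines in grey. SKOV3 and SKOV3-TR lie above 0 for all 35, with medians of 1.43 and 0.63, while the medians were -0.50 in HeyA8, 0.71 in HeyA8-MDR, -0.26 in OV2008 and -0.44 in OV2008-C13.

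Averaged over its lines, the response of mitotic genes was higher in the SKOV3 pair than in the mean of the other 2 pairs, but not in each line. The median of 0.71 in HeyA8_MDR was above the 0.63 of SKOV3-TR and under the 1.43 of SKOV3, and the other 3 lines had medians below 0. In the test of the pair against the others 27 of the 35 had a larger response in the SKOV3 pair and 0 a smaller one, at an unadjusted p under 0.05 that 965 of all genes passed upwards (4.73%) and 1001 downwards (4.91%). Only 2 genes (0.0098%) passed an adjusted p of 0.05. H2AX, the histone variant phosphorylated at DNA breaks, went from 51.94 to 118.5 CPM in SKOV3 and from 95.87 to 132.6 CPM in SKOV3-TR. With QC it was lower in every other line, at between 0.346 and 0.452 of the vehicle level. The log2 response of the SKOV3 pair minus the other pairs was 2.24 ± 0.25 for H2AX (edgeR adjusted p = 0.0347). ERCC6L, a DNA translocase of mitotic chromosomes, went from 2.09 to 4.27 CPM in SKOV3 and from 12.86 to 25.91 CPM in SKOV3-TR. It lay at between 0.332 and 0.563 of the vehicle level in the other lines, a difference of 2.26 ± 0.27 (edgeR adjusted p = 0.0364). Without HeyA8, 150 genes passed that adjusted threshold, without HeyA8_MDR 507, without SKOV3 1, and without SKOV3-TR, OV2008 or OV2008_C13 0.

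Several genes outside the mitotic list, which does not hold every gene of G2 and mitosis, rose to a like extent in both lines. KPNA2, a nuclear import receptor, went from 72.27 to 172.7 CPM in SKOV3 and from 234 to 487 CPM in SKOV3-TR, a log2 change of 1.16 ± 0.19. CKS2, a small subunit of cyclin-dependent kinases, went from 29.8 to 67.94 CPM and from 83.94 to 202 CPM. INSIG1, which holds the sterol-sensing complex in the endoplasmic reticulum, went from 9.75 to 21.77 CPM and from 197 to 450.1 CPM, 2.22-fold and 2.28-fold. The spread between its lines was thus far larger than the spread between their responses. Of 25 cholesterol synthesis genes, 4 rose and 0 fell over both lines, and the list medians were 0.24 in SKOV3 and 0.03 in SKOV3-TR. NPC1, which exports cholesterol from lysosomes, was 1.59-fold and 1.12-fold higher, a log2 change of 0.41 ± 0.18. Of the 11 genes in its list, that of cholesterol export, 2 rose and 0 fell over both lines. As a whole that list did not move alike, with medians of 0.35 in SKOV3 and -0.47 in SKOV3-TR. At an unadjusted p under 0.05, 2 of its genes had a lower response in SKOV3-TR and 0 a higher one.

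FTL and FTH1, the ferritin subunits that store iron, rose over both lines from a high level. FTL went from 1671 to 2577 CPM in SKOV3 and from 2677 to 4299 CPM in SKOV3-TR, and FTH1 from 3736 to 5859 CPM and from 2555 to 3818 CPM. Both genes have many processed copies in the genome, so the counting could have divided their reads. Their log2 changes were 0.65 ± 0.19 and 0.61 ± 0.19, and both responses were higher than in the other pairs, at the unadjusted threshold. Of the 23 NRF2 antioxidant and iron genes 4 rose and 0 fell. TFRC, the transferrin receptor that takes iron in, was 0.728 of the vehicle level in SKOV3 and 2.11-fold higher in SKOV3-TR, a difference of 1.54 ± 0.37 that passed an unadjusted p of 0.05.

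Calls among vacuolar and lysosomal genes stand beside the 2.49% of all genes that rose and the 1.91% that fell over both lines. Of the 16 proton pump genes 2 rose, ATP6V1E1 by 0.51 ± 0.17 and ATP6V1D by 0.54 ± 0.19 on the log2 scale, and 0 fell. Of 34 genes for lysosomal enzymes and membrane proteins 0 passed in either direction, and of 27 autophagy genes 0 passed, with medians between 0.04 and 0.07 in both lines for these lists. At the shares over all genes, lists of this length would hold few calls or none, so the lack of calls says little about them. GPNMB, a lysosomal glycoprotein often raised when lysosomes are burdened, had 5 and 18 counts in SKOV3 and 62 and 102 in SKOV3-TR, a log2 change of 1.65 ± 0.33. SGK1, a serum-induced kinase, had 12 and 38 counts in SKOV3 and 106 and 134 in SKOV3-TR, a change of 1.36 ± 0.25.

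Some NF-kB targets and interferon-stimulated genes fell over both lines. Of 19 genes of epithelial and mesenchymal state 1 rose and 2 fell. FN1, of that list, the matrix protein fibronectin, went from 216.8 to 96.98 CPM in SKOV3 and from 86.55 to 58.8 CPM in SKOV3-TR, a log2 change of -0.86 ± 0.23. Of 26 NF-kB targets 4 fell and 0 rose, and 15 lay below 0 in both lines. CXCL1, a neutrophil-attracting chemokine, went from 28.33 to 10.5 CPM in SKOV3 and from 4.5 to 3.42 CPM in SKOV3-TR. IL1B, the cytokine interleukin 1 beta, had 181 and 76 counts in SKOV3 and 20 and 0 in SKOV3-TR. The NF-kB medians were -0.59 in SKOV3 and -0.20 in SKOV3-TR. They were -0.10 in HeyA8, 0.67 in HeyA8_MDR, 1.04 in OV2008 and -0.02 in OV2008_C13. At an unadjusted p under 0.05, 11 of the 26 had a lower response than in the other pairs, against 4.91% of all genes. That contrast is with the mean of the other pairs, in which HeyA8_MDR and OV2008 had medians above 0.

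Of 25 interferon-stimulated genes 5 fell and 0 rose, with medians of -0.50 in SKOV3 and -0.34 in SKOV3-TR. IFI44, an interferon-induced protein, went from 7.24 to 1.59 CPM in SKOV3 and from 3.36 to 1.79 CPM in SKOV3-TR, and OAS1, a sensor of double-stranded RNA, from 7.95 to 1.64 and from 3.86 to 2.16 CPM. IFI6, another gene of this list, was 0.33 of the vehicle level in SKOV3 and 1.23-fold higher in SKOV3-TR, a difference of 1.92 ± 0.53 that passed an unadjusted p of 0.05. Of 28 immediate early genes and MYC 3 fell and 0 rose. SPRY4 and SPRY2 of that list, feedback inhibitors of receptor tyrosine kinase signalling, fell by 0.76 ± 0.25 and 0.53 ± 0.23 on the log2 scale. TNS1, a focal adhesion protein, had 44 and 10 counts in SKOV3 and 278 and 59 in SKOV3-TR, a log2 change of -1.58 ± 0.40. Antisense transcripts such as WNT5A-AS1 were also among the genes lower in both lines, but the strand setting of the counting is not given in the sources used here, so their reads cannot be told apart from those of the overlapping genes.

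The lines parted in their stress genes. In the test of the SKOV3-TR response minus the SKOV3 response, 0 genes (0%) passed an adjusted p of 0.05 in edgeR, with a smallest adjusted p of 0.0522, while DESeq2 called 19. At an unadjusted p under 0.05, 367 genes (1.8%) had a higher and 272 (1.33%) a lower response in SKOV3-TR. A difference given below with its SE passed that threshold unless stated otherwise. Each line has 1 library per treatment, so this test takes its spread from the HeyA8 and OV2008 pairs. With either HeyA8 line left out, the spread comes from the OV2008 pair alone, so calls made that way rest on a single pair. With HeyA8 left out 108 genes passed the adjusted threshold, 58 higher and 50 lower, and with HeyA8_MDR left out 88 did.

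Cytosolic heat shock genes were higher with QC in SKOV3-TR and level in SKOV3. Of 19 genes, 11 had a higher response in SKOV3-TR and 0 a lower one, all 19 lay above 0 in SKOV3-TR against 8 in SKOV3, and the medians were 1.01 and -0.07. In the other lines the median was 0.41 in HeyA8, 0.375 in HeyA8_MDR, -0.39 in OV2008 and -0.63 in OV2008_C13. HSP90AA1, the inducible HSP90 chaperone, measured 971.9 and 860.2 CPM in SKOV3 without and with QC and 981.2 and 4361 CPM in SKOV3-TR. The vehicle libraries were alike and only the resistant line with QC stood out, at 4.44-fold its vehicle level. The difference in log2 response was 2.33 ± 0.29 (SE; edgeR adjusted p = 0.0921). HSPA8, the constitutive HSP70, went from 1406 to 978.4 CPM in SKOV3 and from 589 to 2074 CPM in SKOV3-TR, a difference of 2.34 ± 0.32. HSPH1, an HSP70 exchange factor, went from 152.7 to 148.5 CPM and from 25.87 to 95.17 CPM. For HSPH1 the vehicle level of SKOV3-TR was the lowest of the 4 values, and the level with QC stayed under that of SKOV3. Over both lines HSP90AA1 also passed at an unadjusted p under 0.05, though its 2 lines pointed in opposite directions.

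Genes of the amino acid response moved the opposite way. Of 31 genes, 16 had a lower response in SKOV3-TR and 0 a higher one, 28 lay above 0 in SKOV3 and 2 in SKOV3-TR, and the medians were 0.39 and -0.69. The median was also below 0 in the other lines, at -1.07 in HeyA8, -0.06 in HeyA8_MDR, -0.53 in OV2008 and -0.38 in OV2008_C13. SKOV3 was thus the only line with a median above 0, and a lower level with QC was not particular to SKOV3-TR. In SKOV3-TR, 11 were at least 2-fold lower. CHAC1, which degrades glutathione, went from 24.4 to 35.45 CPM in SKOV3 and from 52.96 to 4.52 CPM in SKOV3-TR, a difference of -4.09 ± 0.87. SESN2, a leucine-sensing inhibitor of mTORC1, went from 11.47 to 18.86 CPM and from 7.19 to 1.42 CPM, a difference of -3.05 ± 0.50. DDIT3, the stress factor CHOP, went from 99.27 to 202.8 CPM and from 75.2 to 50.66 CPM. TRIB3, a pseudokinase induced by ATF4 and CHOP, went from 137.7 to 246.6 CPM and from 102.2 to 31.21 CPM. In each of these 4 genes the QC library was above vehicle in SKOV3 and below it in SKOV3-TR.

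Enzymes of the same list were lower with QC in SKOV3-TR. ASNS, asparagine synthetase, had 67 and 89 counts in SKOV3 and 639 and 123 in SKOV3-TR, 1.43-fold and 0.349 of the vehicle level, a difference of -2.06 ± 0.66. PCK2, the mitochondrial form of PEPCK, went from 13.39 to 15.77 CPM and from 40.83 to 9.93 CPM. PHGDH, the first enzyme of serine synthesis, went from 209 to 195.4 CPM and from 302.7 to 118.6 CPM, a difference of -1.25 ± 0.60 that did not pass. The 4 transporter genes of the list did not pass for the difference either. SLC7A11, the cystine transporter, was 0.85 of the vehicle level in SKOV3 and 0.439 in SKOV3-TR, and SLC7A5, a transporter of large neutral amino acids, 1.67 and 0.768. SLC3A2, the partner subunit of both, was at 1.38 and 0.75 of the vehicle level, and SLC7A1, a transporter of cationic amino acids, at 1.27 and 0.777. SLC1A4, a neutral amino acid transporter outside the list, went from 49.72 to 62.13 CPM and from 39.17 to 7.57 CPM, a difference of -2.69 ± 0.55. With HeyA8 left out, 13 genes of this list and 5 heat shock genes passed the adjusted threshold for the difference in edgeR.

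Promoter windows were matched for 17 of the 19 heat shock genes and 26 of the 31 amino acid response genes. The heat shock element letters GAANNTTC, both strands, lay in 6 of the 17 (35.3%) against 6.87% of all windows, and the amino acid response element core TGATGNAA in 6 of the 26 (23.1%) against 3.67%. The windows below belong to genes that moved apart between the lines and hold these letters, shown in capitals. They are chr11:123062087-123062386 (minus strand) for HSPA8, chr9:33025023-33025322 for the HSP70 co-chaperone DNAJA1, chr7:97872359-97872658 (minus strand) for ASNS and chr15:40953221-40953520 for CHAC1. HSP90AA1 and HSPH1 hold no GAANNTTC and SESN2 no TGATGNAA in these windows.
HSPA8: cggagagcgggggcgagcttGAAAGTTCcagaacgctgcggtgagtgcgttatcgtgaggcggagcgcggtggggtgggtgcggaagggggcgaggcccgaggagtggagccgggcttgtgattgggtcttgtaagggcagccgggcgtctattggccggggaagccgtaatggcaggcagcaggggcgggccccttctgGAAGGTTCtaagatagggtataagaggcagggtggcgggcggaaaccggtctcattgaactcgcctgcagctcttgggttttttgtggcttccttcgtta
DNAJA1: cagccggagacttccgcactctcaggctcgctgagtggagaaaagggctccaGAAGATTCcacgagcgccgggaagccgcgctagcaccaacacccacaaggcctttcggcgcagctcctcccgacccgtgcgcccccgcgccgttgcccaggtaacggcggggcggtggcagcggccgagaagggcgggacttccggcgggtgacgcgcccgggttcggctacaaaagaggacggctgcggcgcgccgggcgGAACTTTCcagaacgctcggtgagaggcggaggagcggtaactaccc
ASNS: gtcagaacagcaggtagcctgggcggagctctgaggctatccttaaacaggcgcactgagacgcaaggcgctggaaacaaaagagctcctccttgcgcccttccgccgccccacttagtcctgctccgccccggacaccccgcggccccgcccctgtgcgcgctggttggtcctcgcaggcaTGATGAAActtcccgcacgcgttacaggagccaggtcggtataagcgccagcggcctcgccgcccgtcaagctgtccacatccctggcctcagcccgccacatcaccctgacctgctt
CHAC1: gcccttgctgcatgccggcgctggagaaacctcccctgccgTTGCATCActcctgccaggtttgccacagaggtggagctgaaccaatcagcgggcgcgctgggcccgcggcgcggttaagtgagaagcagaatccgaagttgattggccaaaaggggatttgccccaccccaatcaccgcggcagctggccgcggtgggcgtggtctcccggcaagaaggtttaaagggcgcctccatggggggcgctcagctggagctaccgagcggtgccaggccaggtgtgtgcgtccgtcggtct

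**Figure D3:**
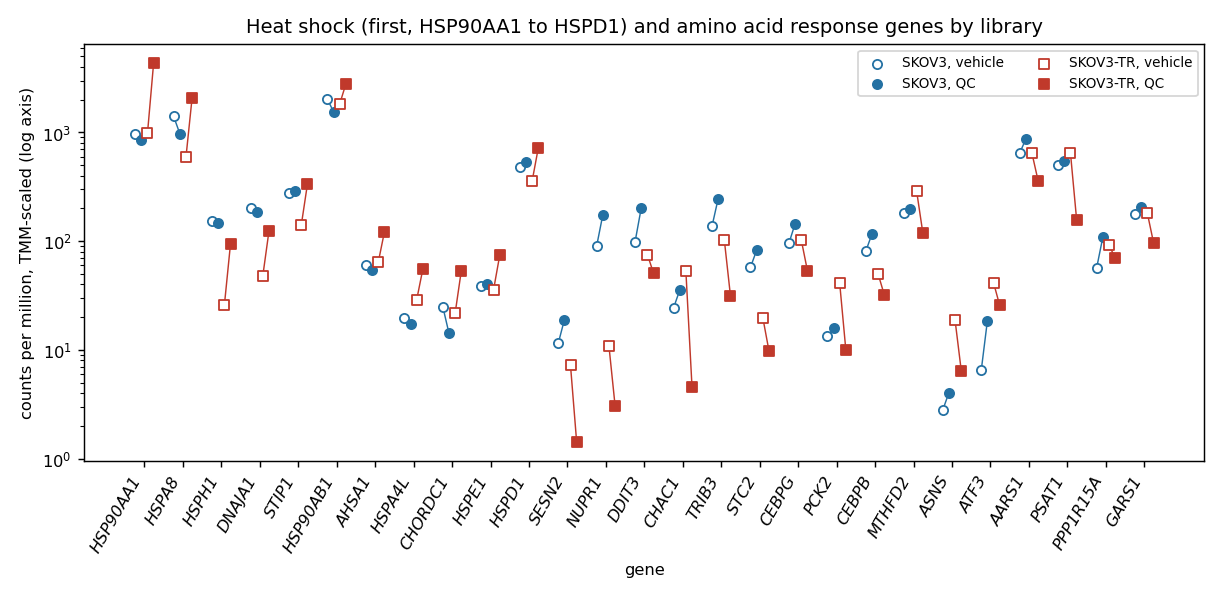
CPM on a log axis (y axis) of the 11 heat shock and 16 amino acid response genes (x axis) whose response differed between the lines at an unadjusted p under 0.05, 1 point per library, open for vehicle and filled for QC, joined within a line. The lines join steeply upwards in SKOV3-TR for the heat shock genes, from 981.2 to 4361 CPM for HSP90AA1, and downwards for the amino acid response genes, from 52.96 to 4.52 CPM for CHAC1.

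Other groups separated the lines to a smaller extent. Of 50 DNA replication genes, 10 had a higher response in SKOV3-TR and 0 a lower one, with medians of -0.21 in SKOV3 and 0.37 in SKOV3-TR. MCM5, a subunit of the replicative helicase, went from 29.76 to 10.13 CPM in SKOV3 and from 44.6 to 68.37 CPM in SKOV3-TR, a difference of 2.17 ± 0.33. PCNA, the sliding clamp, was 0.712 of the vehicle level in SKOV3 and 1.43-fold higher in SKOV3-TR, a difference of 1.01 ± 0.37. In SKOV3 the mitotic genes were thus higher with QC while MCM5 and PCNA were lower. RRM2, the ribonucleotide reductase subunit made in S phase, was higher in both, from 10.96 to 16.77 and from 123 to 189.8 CPM. Without HeyA8 18, and without HeyA8_MDR 17, of the 50 replication genes had a higher response in SKOV3-TR.

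Of 27 glycolysis and hypoxia genes all lay above 0 in SKOV3-TR and 8 in SKOV3, and 6 had a higher response in SKOV3-TR and 0 a lower one. LDHA, lactate dehydrogenase A, went from 1169 to 1030 CPM in SKOV3 and from 600.1 to 1233 CPM in SKOV3-TR, a difference of 1.22 ± 0.38. Of 20 genes of the unfolded protein response in the endoplasmic reticulum 5 had a higher response in SKOV3-TR. HSPA5, its chaperone BiP, went from 895.1 to 669.8 CPM and from 638.1 to 1272 CPM, 0.748 and 1.99 of the vehicle level, and passed for the difference. MT2A, a metallothionein, was 1.21-fold and 2.67-fold higher, and its family members share near-identical sequence.

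Cytoplasmic ribosomal protein genes shifted together by a small amount. All 79 had a higher log2 change in SKOV3-TR than in SKOV3, with medians of 0.31 and -0.17, and 5 passed for the difference. Scaling by library size alone gave medians of 0.19 and -0.15 for the same list and moved the median of all genes in SKOV3-TR to -0.12, so the SKOV3-TR shift relative to all genes was 0.31 on either scale. Over both lines 1 of the 79 rose and 0 fell. All 15 mitochondrially encoded genes were likewise higher in their response in SKOV3-TR, and 9 of 76 mitochondrial ribosomal protein genes rose and 0 fell over both lines, MRPL23 by 0.66 ± 0.19.

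**Figure D4:**
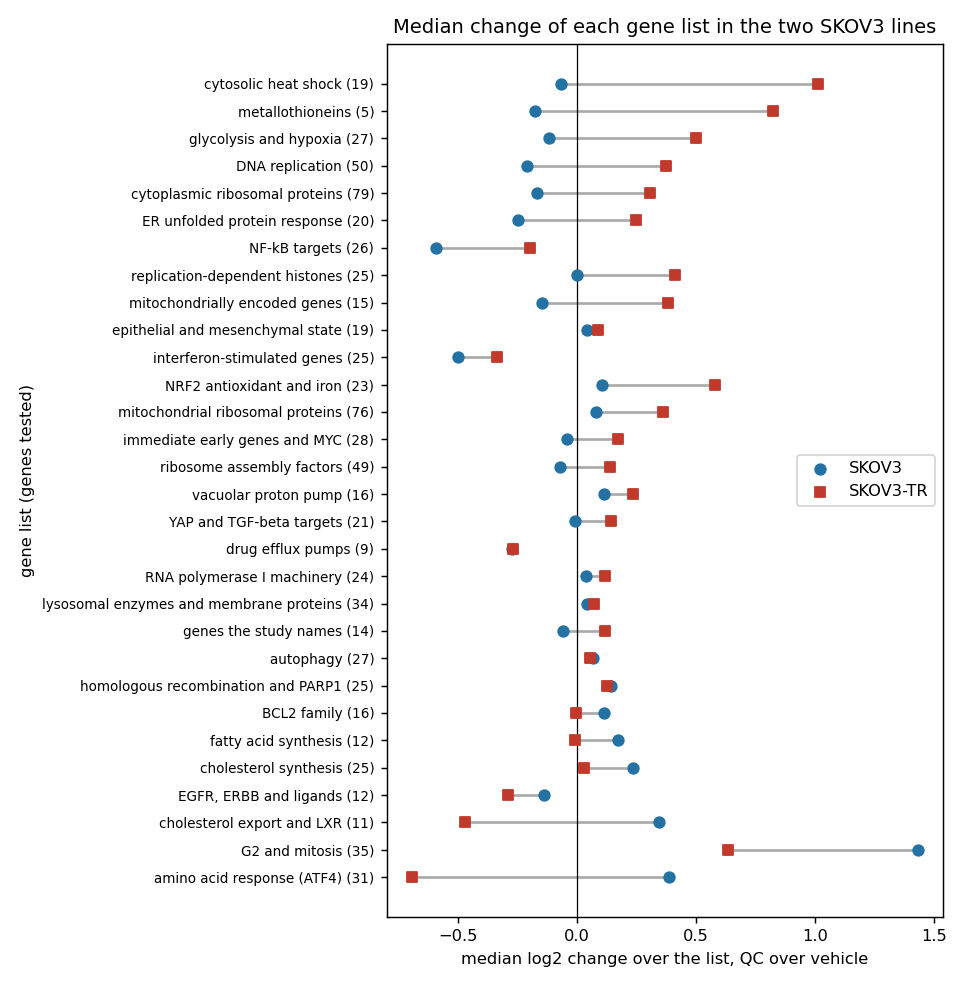
Median log2 change with QC over vehicle (x axis) of each of 30 gene lists (y axis, with genes tested) in SKOV3 (blue circles) and SKOV3-TR (red squares). The lists for heat shock (-0.07 and 1.01) and the amino acid response (0.39 and -0.69) lie farthest apart, and G2 and mitosis (1.43 and 0.63) lies farthest above 0 in SKOV3. In SKOV3-TR heat shock and metallothioneins (0.82) lie farther above 0 than G2 and mitosis.

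Single genes with the largest differences were mostly of low abundance. HLA-C, a class I antigen-presenting molecule, had 216 and 8 counts in SKOV3 and 64 and 33 in SKOV3-TR, or 9.04 and 0.364 CPM against 1.87 and 1.73 CPM. It was nearly lost in SKOV3 with QC and level in SKOV3-TR, a difference of 4.51 ± 0.63. Class I genes are near-identical to each other and differ between alleles, so the value is uncertain. ZBED2, a zinc finger protein, had 32 and 4 counts in SKOV3, or 1.34 and 0.182 CPM, and went from 94.96 to 121.6 CPM in SKOV3-TR. MPZL2, an adhesion molecule, had 66 and 9 counts in SKOV3, or 2.76 and 0.409 CPM, against 2.57 and 2.84 CPM in SKOV3-TR. In SKOV3-TR alone, FUT1, a fucosyltransferase of blood group H antigen, had 79 and 0 counts while SKOV3 had 52 and 66. CPA4, a carboxypeptidase, had 0 and 0 counts in SKOV3 and 76 and 286 in SKOV3-TR, so its 6.55-fold rise belongs to the resistant line and SKOV3 offers nothing to compare at this depth.

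EEF1A1P5, a processed copy of the translation factor gene EEF1A1, had the smallest p of all for the difference. It measured 38.42 and 7.23 CPM in SKOV3 and 5.26 and 21.49 CPM in SKOV3-TR, a difference of 4.44 ± 0.45 (edgeR adjusted p = 0.0522). Its reads can be shared with the parent gene, so the value is uncertain. MICA, a stress ligand of natural killer cells, had 5 and 25 counts in SKOV3 and 59 and 13 in SKOV3-TR, a difference of -3.74 ± 1.05. AMOTL2, a target of the YAP coactivator, was 1.83-fold higher in SKOV3 and 0.677 of the vehicle level in SKOV3-TR.

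Of the 14 tested genes that the study names, 0 rose or fell over both lines. For the difference, 1 had a higher response in SKOV3-TR, CST6, and 2 a lower one, ASNS and DNMT3B, at an unadjusted p under 0.05. CST6, a cysteine protease inhibitor, had a fitted difference of 8.49 on the log2 scale. With a prior count of 2, no gene of this list lay above 1.80 in SKOV3-TR or below -0.58 in SKOV3, so that size is uncertain. GNL3, the nucleolar GTPase nucleostemin, went from 85.21 to 74.12 CPM in SKOV3 and from 100.6 to 133 CPM in SKOV3-TR, a difference of 0.60 ± 0.37 that did not pass. POLR1A, the catalytic subunit of RNA polymerase I, went from 123.9 to 122.3 CPM and from 70 to 66.48 CPM, and UBTF, its upstream factor, from 226.9 to 237.5 and from 200 to 159.6 CPM. DNMT3B, a DNA methyltransferase, was 1.64-fold higher in SKOV3 and 0.601 of the vehicle level in SKOV3-TR, a difference of -1.45 ± 0.38.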

How the data were processed

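RNA-seq was available for 12 libraries of 6 cell lines, 1 per line and treatment; the 4 SKOV3 and SKOV3-TR libraries are the subject here. The authors deposited raw counts per gene, without normalization. Per the labels, the submitters' processing notes name STAR 2.7.3a, HTSeq 0.6.1p1 and GRCh38.p13, while the paper's methods name TopHat and hg19; the gene identifiers include 8224 that are later than GRCh37 annotations. The strand setting is not given in the sources used here. Symbols were paired by Ensembl ID for 58663 of 60669 genes (99.87% of counts). Counts between 1 and 10 were even numbers in 64.8% to 69.9% of cases, so counting precision is lower than the totals imply; precision otherwise follows the totals of 17782556 to 30585059 counts.

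Tests were edgeR 4.0.16 quasi-likelihood tests in R 4.3.3 (two-sided, Benjamini-Hochberg). filterByExpr (minimum count 10, minimum total 15) left 20403 genes, which were scaled by TMM. The design had a term for each line (the replicate block, since both libraries come from the same line) and a QC term for each pair; a second fit gave SKOV3 and SKOV3-TR a QC term each. Deviations of the lines of a pair from the pair mean, vehicle against QC, correlated at 0.861 in SKOV3, 0.501 in HeyA8 and 0.65 in OV2008. Line-wise log2 changes used CPM with a prior count of 2, which understates changes of low genes, and have no test. DESeq2 1.42.0 was an alternative. GC content and transcript length came from 20268 genes with a GENCODE transcript. The code was tested on simulated data.

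Named genes were, among those with at least 50 counts in a library: the 10 genes alike up and the 10 alike down with the largest smaller change, 8 per line for line-only changes, 5 opposite, the 2 smallest p per list, those the study names, and the 5 smallest p in each direction against the other pairs; only some are printed. HSP90AA1, HSPA8, HSPH1, DNAJA1, CCNB1, CDK1, TOP2A, PLK1, AURKB, UBE2C, BUB3, MCM5, PCNA, SESN2, DDIT3, TRIB3, CHAC1, LDHA, HSPA5, TFRC, ABCB1, OAS1, IFI6 and AMOTL2 lie outside it: they were picked once their values had been seen. The members and the 30 gene lists were chosen with earlier results of these data known. A further list is not reported here. Figures were drawn with matplotlib 3.10.9.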

Additional observations from a re-analysis of the deposited data

Results flagged for a closer look

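ERCC6L and H2AX were singled out because their response to QC differed between the SKOV3 pair and the other 2 pairs at an adjusted p under 0.05 in edgeR's quasi-likelihood test. The log2 response of the SKOV3 pair minus the other pairs was 2.26 for ERCC6L and 2.24 for H2AX. Both were higher with QC in SKOV3 and SKOV3-TR and lower with QC in each of the other 4 lines. No groups held enough libraries for a test of single outlying samples.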

How the results depend on the processing

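Line-wise counts rest on genes of low abundance, and differences between SKOV3 and SKOV3-TR rest on 1 library per condition and on the spread of the other lines. The GC and length correction and the thinning to 1 depth were chosen after seeing the data. Changes in SKOV3-TR correlated with GC content at rho = -0.198 across 17437 genes. Over both lines, 0 genes at an adjusted p of 0.05 became 117 without a filter on low counts, 12 with the 4 libraries of the SKOV3 pair alone and 16 with DESeq2, and 0 to 86 when a line was left out. The 898 genes at an unadjusted p under 0.05 became 571 to 1459 when a line was left out. Without the replicate block of line, 78 genes and 0 of the 35 G2 and mitosis genes had an unadjusted p under 0.05. Leaving out a line gave 7 to 33 of the 35.

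For SKOV3-TR minus SKOV3, 0 genes at the adjusted threshold became 62 without a filter, 19 with DESeq2, 2 with the GC and length correction and 0 to 108 without a line. The 639 genes at the unadjusted threshold became 961 without a filter and 473 to 1372 without a line. Leaving out a line gave 10 to 14 heat shock genes, 17 to 23 amino acid response genes and 7 to 18 DNA replication genes, against 11, 16 and 10. No paired analysis without the block was made of this difference, which compares changes within each line. Against the other pairs, the 2 genes at the adjusted threshold became 0 with library size scaling, 399 without a filter, 0 without the replicate block, 163 with DESeq2 and 0 to 507 without a line. The 1966 genes at the unadjusted threshold became 231 without the block and 1295 to 2839 without a line.

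By fold, genes higher in both lines, 114, became 31 with a prior count of 5, 428 at 1.5-fold, 3 at 4-fold and 9 where each library had 10 counts or more. Genes lower in both, 144, became 302 with a prior count of 0.5, 51 with 5, and 615, 3 and 6 under the same other settings. Genes of SKOV3 alone, 916, became 521 with a prior count of 5, 2190 at 1.5-fold, 94 at 4-fold and 114 with at least 10 counts. Genes of SKOV3-TR alone, 1125, became 3137, 122 and 188 at 1.5-fold, at 4-fold and with the minimum of 10 counts. Genes in opposite directions, 174, became 383 with a prior count of 0.5, 44 with 5, 845 at 1.5-fold, 6 at 4-fold and 4 with at least 10 counts. The cause of these moves was not tested beyond the settings themselves. Of 1677 recomputed values of single genes, 1449 kept direction and threshold, 225 lost the threshold and 3 reversed. Over both lines the log2 change of HSP90AA1 was -0.18 without SKOV3-TR and 2.10 without SKOV3, that of HSPH1 -0.046 and 1.82, and that of ESRP1 1.31 and -0.20.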
